A study of Homo sapiens with 40 samples.

Results

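The long arm of human chromosome 1 (1q) was examined as the 4230 bins of 25 kb that start at or beyond base 143200000 of hg38, out of 121191 such bins on chromosomes 1 to 22 and X. Each bin was scored, in each library, by the percent of its bases inside merged H3K27me3 peaks (covered percent). The arm was singled out because bins that gained coverage were frequent on it, so the gains after loss of NSD2 are given here as a description. The bins on both sides of the arm's start, at chr1:143175001-143200000 and chr1:143200001-143225000, had no coverage in any of the 30 libraries.

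H3K27me3 is the repressive histone mark that Polycomb repressive complex 2 lays down over silent developmental and lineage genes. NSD2 is a histone methyltransferase that deposits H3K36me2, a mark that hinders the Polycomb enzyme on the same histone tail, and the t(4;14) translocation of multiple myeloma places NSD2 under strong immunoglobulin enhancers. Gain of 1q is among the commonest copy number changes of myeloma. The arm carries CKS1B and MCL1, which are discussed as drivers of that gain, and several clusters of related genes: the epidermal differentiation complex, the CD1 and Fc receptor-like genes, the SLAM receptors and the complement regulators.

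CUT&Tag, which uses an antibody to bring a cutting transposase to modified chromatin, was run on 50000 nuclei per library, with 13 PCR cycles. All cells were KMS-11, a human t(4;14) myeloma line. In the first experiment, the parental KMS-11 cells (KO parental, 2 libraries) were set against NSD2 knockout (KO) clones 3 and 12, with 2 libraries each. In the second, NSD2dTAG clones 8 and 11 and the untagged KMS-11 line from which they were made (dTAG parental) were sampled at 0, 7, 14 and 21 days of dTAGV-1, a compound that sends dTAG-fused protein to the VHL ubiquitin ligase for degradation, with 2 libraries per line and day. The labels give 100 nM for the NSD2dTAG cells and no dose for the untagged line. Each knockout or tagged line is a single clone. Libraries of a clone on different days share that clone, and where the labels name no separate cultures the spread between libraries may be technical. The series also holds 4 H3K4me3, 4 H3K27ac and 2 IgG libraries, which were not analysed here. In what follows, the 14 NSD2-proficient libraries are KO parental, dTAG parental at every day and the tagged clones at day 0, and the 16 NSD2-deficient libraries are the KO clones and the tagged clones at days 7, 14 and 21. NSD2 protein was not measured in these files.

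The deposited lists held 34740 to 107673 peaks in the 14 NSD2-proficient libraries and 87458 to 205920 in the 16 others. Sequencing depth is not listed. The background pileup of the peak caller, a stand-in for depth solved from the peaks, is given in fragments per position. It ran from 0.922 to 3.26 in the 14 and from 1.61 to 2.84 in the 16. The ranges overlapped, but the means were 1.79 and 2.29. Within the comparisons, the mean pileup was 2.04 in KO parental cells and 2.49 in the KO clones. In the tagged clones it was 1.44 at day 0 and 2.20, 2.14 and 2.33 at days 7, 14 and 21. Over 9 plasma cell genes the mean covered percent in the 14 libraries ran from 0.272 (TNFRSF17) to 24.6 (SLAMF7, a surface receptor gene of 1q), with a median of 3.42. Of the B cell genes reported here, MS4A1 had 0.0, PAX5 10.1 and CD22 23.1. Peaks come from bulk cells, so more cells with the mark and more of the mark per cell cannot be told apart, and the copy number of 1q was not measured.

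Promoters show the pattern at the level of sequence. The 5 windows below are the 250 bases before a gene's start (RefSeq, GRCh38.p14, the assembly of hg38), written 5′ to 3′ on the strand of the gene, with every CG dinucleotide in capitals. They were chosen after their values were seen, to set windows that were overlapped by a peak almost only in NSD2-deficient libraries beside windows that were overlapped in all 30. FCRL3 (an Fc receptor-like gene of B cells) lies on the minus strand at chr1:157700770-157701019, holds 1 CG and was overlapped in 0 of the 14 and 13 of the 16 libraries. LCE3E (a late cornified envelope gene of the epidermis; minus strand, chr1:152566781-152567030) holds 1 CG and was overlapped in 1 of 14 and 16 of 16. OR6P1 (an olfactory receptor gene; minus strand, chr1:158570581-158570830) holds 2 CG and was overlapped in 0 of 14 and 16 of 16. LHX4 (a LIM homeobox gene of pituitary and motor neuron development; plus strand, chr1:180230014-180230263) holds 30 CG, and CKS1B (a cell cycle kinase subunit; plus strand, chr1:154974431-154974680) holds 18. Both were overlapped in 14 of 14 and 16 of 16.
FCRL3: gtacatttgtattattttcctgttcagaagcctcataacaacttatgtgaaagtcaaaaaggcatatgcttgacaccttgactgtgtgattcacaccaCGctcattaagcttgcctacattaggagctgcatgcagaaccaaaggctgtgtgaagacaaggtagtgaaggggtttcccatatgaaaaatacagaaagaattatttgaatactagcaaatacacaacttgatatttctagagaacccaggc
LCE3E: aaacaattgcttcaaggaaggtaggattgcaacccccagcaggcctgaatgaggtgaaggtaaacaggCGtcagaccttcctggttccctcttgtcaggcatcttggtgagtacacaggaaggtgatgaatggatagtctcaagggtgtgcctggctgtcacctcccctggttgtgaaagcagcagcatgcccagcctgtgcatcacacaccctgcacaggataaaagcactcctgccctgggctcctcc
OR6P1: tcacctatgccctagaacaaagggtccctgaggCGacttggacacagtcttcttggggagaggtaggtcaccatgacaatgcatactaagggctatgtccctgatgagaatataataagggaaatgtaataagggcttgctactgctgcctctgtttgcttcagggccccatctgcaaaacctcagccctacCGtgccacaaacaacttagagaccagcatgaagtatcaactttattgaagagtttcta
LHX4: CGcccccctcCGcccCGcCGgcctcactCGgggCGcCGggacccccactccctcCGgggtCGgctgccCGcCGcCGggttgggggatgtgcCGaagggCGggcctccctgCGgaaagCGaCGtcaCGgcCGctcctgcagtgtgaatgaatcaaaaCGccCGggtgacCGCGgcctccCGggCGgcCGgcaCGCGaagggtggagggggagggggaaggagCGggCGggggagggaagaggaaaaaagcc
CKS1B: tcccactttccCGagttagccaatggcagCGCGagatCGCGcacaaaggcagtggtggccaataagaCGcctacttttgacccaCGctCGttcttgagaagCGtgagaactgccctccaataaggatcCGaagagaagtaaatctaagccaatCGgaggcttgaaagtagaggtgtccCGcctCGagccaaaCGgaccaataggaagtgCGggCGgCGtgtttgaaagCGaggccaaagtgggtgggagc

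The contrast held across the arm's 1689 annotated gene starts when the windows were grouped by their number of CG (both strands hold the same number, and overlapping motifs do not occur). The 687 windows with 0 to 4 CG, a class that makes up 34.3% of all 34961 such windows on chromosomes 1 to 22 and X, were overlapped by a peak in 13.2% ± 4.77 (SD, n = 14) of cases in the NSD2-proficient libraries and in 28.9% ± 5.08 (SD, n = 16) in the others. The ranges were 6.99 to 23.1% and 18.6 to 37.4% and overlapped. The 354 windows with 5 to 14 CG (22.7% of all windows) were overlapped in 49.5% ± 7.39 (n = 14) and 56.8% ± 4.39 (n = 16). The 648 windows with 15 or more CG (43.0% of all windows) were overlapped in 82.0% ± 4.38 (n = 14) and 84.3% ± 2.35 (n = 16). The percents of all windows are the sizes of the classes. How often each class was overlapped over all chromosomes is not given here, so these values describe 1q without setting it apart. Of the 49 starts overlapped in none of the 14 and at least 8 of the 16 libraries, 43 had 0 to 4 CG. Such windows made up 40.7% of the arm's starts. Windows with 15 or more CG were mostly overlapped in the 14 already, so few could enter this group. Its make-up is therefore not a result. In all, 525 of the 1689 starts were overlapped in all 30 libraries, among them 29 of the first-listed starts of 42 broadly expressed genes of the arm. Overlap with a peak at a CG-rich start was thus frequent in broadly expressed genes too, and the IgG background at those starts was not tested. The counts of 49 and 525 starts likewise have no share over all chromosomes beside them.

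Coverage of the arm as a whole was low before NSD2 loss and higher after it in every line. In KO parental cells 3.41% and 2.52% of the arm lay inside peaks, against 10.0% and 8.45% in KO clone 3 and 7.41% and 5.50% in KO clone 12. In the untreated clone 8 libraries it was 3.04% and 1.56%, followed by 5.76% and 6.87% on day 7, then 8.03% and 5.00% on day 14, then 8.97% and 6.90% on day 21. The untreated clone 11 libraries had 2.20% and 2.03%, followed by 7.09% and 7.44% on day 7, then 8.08% and 6.60% on day 14, then 8.01% and 5.16% on day 21. The lowest of the 16 NSD2-deficient libraries, at 5.00%, lay above the highest of the 14 others, the dTAG parental library at 4.60%. That line had 3.61% and 1.91% at day 0 and 4.60% and 2.71% at day 21. By group, the mean was 2.96% ± 0.629 (SD, n = 2) in KO parental cells and 7.84% ± 1.89 (SD, n = 4) in the KO clones, and it was 2.21% ± 0.617, 6.79% ± 0.727, 6.93% ± 1.45 and 7.26% ± 1.64 (SD, n = 4 each) in the tagged clones at days 0, 7, 14 and 21.

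**Figure D1:**
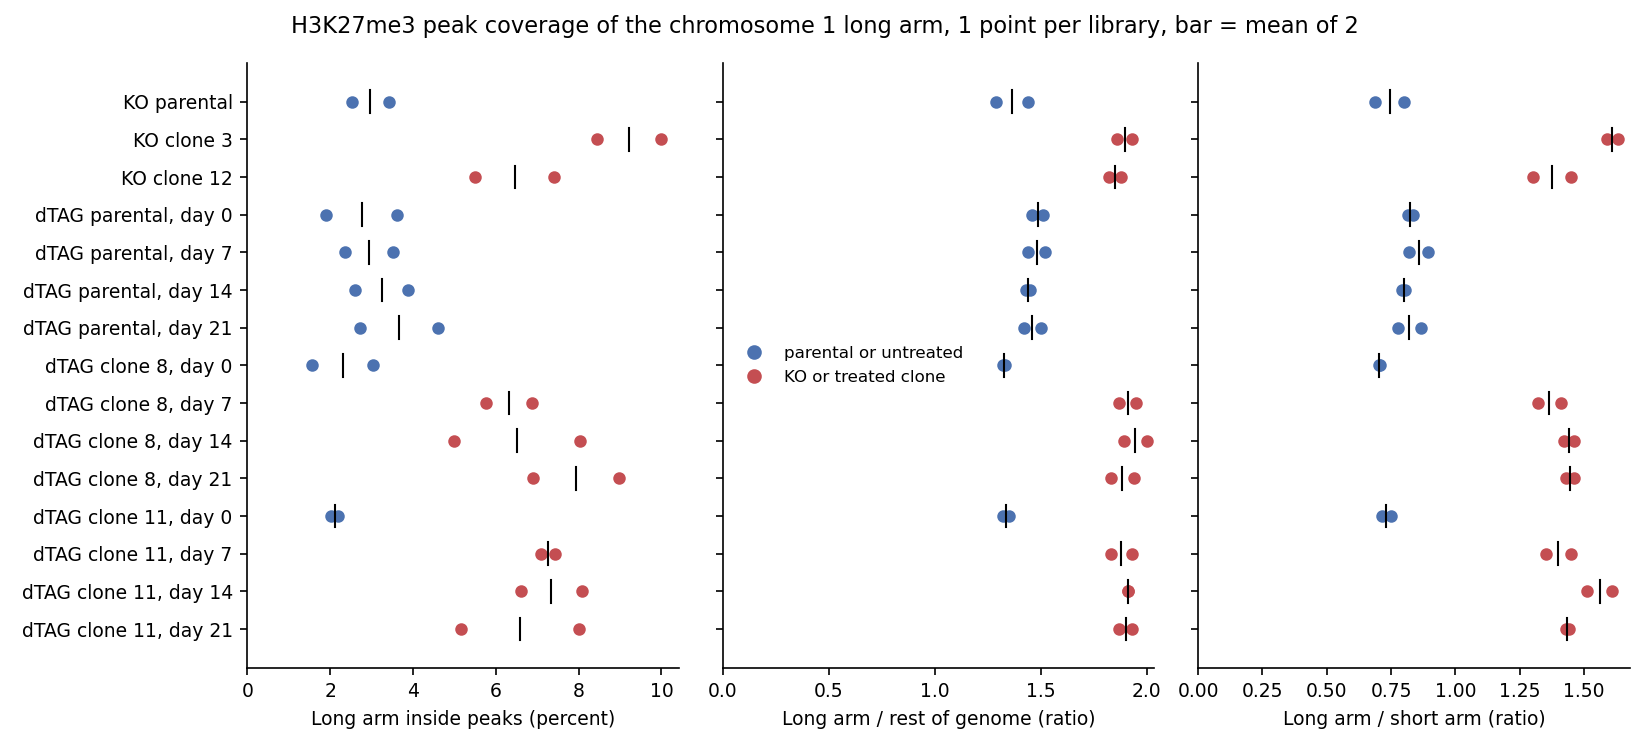
H3K27me3 coverage of 1q in each of the 30 libraries: percent of the arm inside peaks (left), that percent divided by the percent of all other bins (middle) and by that of the short arm (right). Points are libraries, bars the mean of 2; the 16 red NSD2-deficient libraries sit at 1.82 to 2.00 in the middle panel and the 14 blue ones at 1.29 to 1.52.

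The gain came as more peaks, not wider ones. The arm held 1696 to 5780 peaks in the 14 NSD2-proficient libraries and 5520 to 12248 in the 16 others. Their median width was 562 to 831 bp in the 14 and 561 to 757 bp in the 16. The median fold enrichment of the arm's peaks, which is the authors' value as the caller gave it, was 2.78 to 3.43 in the 14 and 2.59 to 2.91 in the 16. Bins with any coverage made up 27.4 to 46.9% of the arm in the 14 and 56.3 to 79.1% in the 16. In all, 1477 bins were covered in at least 1 NSD2-deficient library and in no other, 664 of them in at least 8 of the 16, and 27 bins were covered only in NSD2-proficient libraries. These counts have no share over all bins of the genome beside them. Longer lists cover more bins on any chromosome, so the counts describe 1q without setting it apart. Coverage of the arm as a whole stayed thin, at 5.00 to 10.0% in the 16, although single bins were well covered. The highest mean of any bin over the 30 libraries was 66.1%.

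Because longer peak lists cover more of every chromosome, the arm was also expressed as a ratio, its covered percent divided by that of all other bins (1q ratio). The ratio lay between 1.29 and 1.52 (mean 1.41 ± 0.0763, SD, n = 14) in NSD2-proficient libraries and between 1.82 and 2.00 (mean 1.90 ± 0.0508, SD, n = 16) in the others, with no overlap. Against the short arm of the same chromosome it was 0.688 to 0.895 in the 14 and 1.30 to 1.63 in the 16. With each list shortened to its best 36.1 Mb, the length of the shortest list, the 1q ratio was 1.32 to 1.66 and 1.96 to 2.47, again without overlap. Per unit of background pileup, the covered percent was 1.32 to 1.92 and 2.70 to 3.68. Among peaks with a -log10 q of at least 5 the ranges did overlap, at 1.38 to 2.92 and 2.12 to 2.98, and such peaks covered 0.552 to 2.50 Mb and 0.796 to 2.56 Mb of the arm.

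Among the 24 chromosomal units (22 autosomes with chromosome 1 in its arms, and X), 1q had a higher ratio after NSD2 loss where the units ranked above it had a lower one. In KO parental cells 6 units had a higher ratio to the rest of the genome than 1q, and all 6 had a lower one in the KO clones. At day 0 in the tagged clones 7 units stood above 1q, and all 7 were lower at day 21. After NSD2 loss 1 unit remained above 1q in the KO clones and 2 at day 21. The short arm went from 1.89 to 1.24 in the KO experiment and from 1.91 to 1.29 in the tagged clones, while 1q went from 1.36 to 1.88 and from 1.33 to 1.89. Chromosome 20, whose covered percent was nearest to that of 1q over the 30 libraries (mean absolute difference 1.10 percentage points), went from 2.46 to 1.70 and from 2.32 to 1.76. By the factor of change 1q ranked 7 of 24 in both experiments, at 1.37 and 1.42. The units ahead of it in the KO experiment, led by chromosome 18 at 2.52, started from ratios below 1. These changes come from the comparisons that singled out the arm, so no test is attached.

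**Figure D2:**
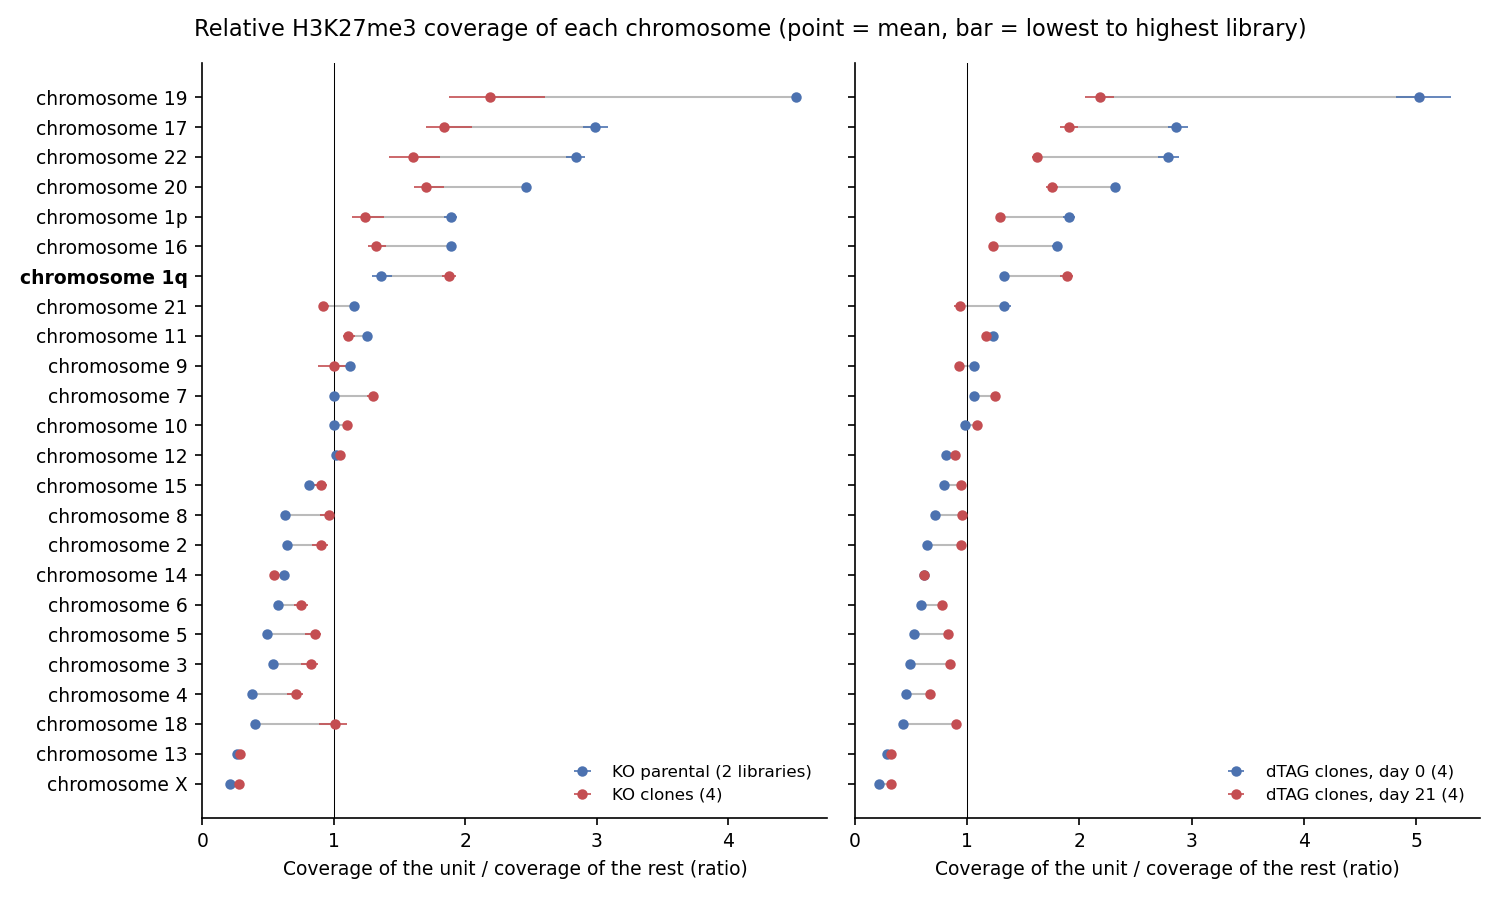
Coverage of each chromosomal unit divided by that of all other bins, before (blue) and after (red) NSD2 loss in the KO experiment (left) and the tagged clones (right). Points are means and bars run from the lowest to the highest library; 1q (bold) moves right, from 1.36 to 1.88 in the KO experiment, while the units above it at the start move left.

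The 1q ratio was compared in 2 ways that do not set treated clones against their day 0, by exact two-sided permutation over libraries. Another comparison computed with them, of the untreated lines, enters the Benjamini-Hochberg adjustment over 3. In the untagged line, days 7, 14 and 21 of dTAGV-1 gave 1.46 ± 0.0423 (SD, n = 6) against 1.48 ± 0.0368 (n = 2) at day 0, a difference of -0.0244 (exact p = 0.5, adjusted p = 0.75, smallest possible p = 0.0357). In the tagged clones, day 21 gave 1.89 ± 0.0547 (n = 4) and day 7 gave 1.90 ± 0.0552 (n = 4), a difference of -0.00336 (exact p = 0.857, adjusted p = 0.857, smallest possible p = 0.0286). Before any treatment, the tagged clones stood below the untagged line, at 1.33 ± 0.0114 (n = 4) against 1.48 ± 0.0368 (n = 2), with no overlap. That difference of -0.151 is a description with no test, since the day 0 libraries of the clones are also the base of the gains for which the arm was chosen. The sign of the first difference turned (0.00158) without dTAG parental day 0 replicate 2, and that of the second turned without any 1 of 4 libraries (clone 8 day 21 replicate 1, clone 11 day 21 replicate 1, clone 8 day 7 replicate 2 or clone 11 day 7 replicate 2), the highest value being 0.0175.

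Bin by bin, most of the tested arm gained coverage. Of the 4230 bins, 487 were never covered, 1043 were covered with a mean under 1%, and 2700 passed the filter (mean 1 to 99% over the 30 libraries) and were tested with limma, adjusted over all 49812 bins that passed genome-wide. In the KO clones 1455 of the 2700 (53.9%) gained and 5 lost coverage at an adjusted p under 0.05, beside 37.3% gained and 0.522% lost of all tested bins. At day 21 of the tagged clones 1771 (65.6%) gained and 0 lost, beside 51.6% and 0.367% (limma, 1 lost at an unadjusted p under 0.05). Day 7 had 1561 gained (background 39.5%) and 0 lost (0.159%; 1 at an unadjusted p), and day 14 had 1679 gained (47.1%) and 0 lost (0.387%; 1 at an unadjusted p). The counts of 0 lost became 1 or 2 without clone 8 day 0 replicate 2, clone 11 day 0 replicate 1 or clone 11 day 14 replicate 2 at day 14, and without clone 8 day 0 replicate 1 or 2 or clone 11 day 0 replicate 2 at day 21. The median change of the arm's tested bins was 6.97 percentage points in the KO clones, against 4.15 over all tested bins, and 6.98 against 4.57 at day 21. All 4 KO libraries lay above both KO parental libraries in 1704 of the 2700 bins (63.1%; 45.1% of all tested bins), and all 4 day 21 libraries above all 4 day 0 libraries in 1572 (58.2%; 45.9%). The 1158 bins gained in both experiments were 79.6% of the KO list and 65.4% of the day 21 list, beside 76.3% and 55.1% over all tested bins. After scaling each library to its called length the split was 1075 gained and 167 lost in the KO clones and 1203 and 247 at day 21. With the background pileup as a covariate it was 1356 gained and 23 lost in the KO clones and 1202 and 17 at day 21. With lists of equal length the gains were 91 and 303, and they dropped to 0 and 12 among peaks with a -log10 q of 5 or more. Leaving out KO parental replicate 1 or 2 gave 787 or 635 gained in the KO clones.

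The tests that the choice of the arm did not use found fewer differences. Between days 7 and 21 of the tagged clones, 42 bins (1.56%) gained and 23 (0.852%) lost, beside 1.83% and 0.379% of all tested bins. The median change was 0.566 percentage points on the arm and 0.5 over all bins. The rise with the largest size, at chr1:186625001-186650000 with no protein-coding gene, went from 6.79 ± 2.10 to 18.7 ± 5.53% (SD, n = 4 each; limma adjusted p = 0.00439), from 0 at day 0. A bin in CRB1, a retinal cell polarity gene (chr1:197425001-197450000), went from 4.49 ± 3.42 to 15.5 ± 5.22% (limma adjusted p = 0.0139). A bin at chr1:193275001-193300000 had 0.315 ± 0.630% at day 0, 7.68 ± 1.82% at day 7 and 0 in all 4 libraries at day 21 (limma adjusted p = 0.00129). These 3 bins were chosen after their values were seen. The count of gains ranged from 17 to 119 as single libraries were left out. The gains fell more than 1.5-fold without any library of clone 8 at day 7 (17 and 27), clone 11 at day 7 (19 and 23), clone 8 day 21 replicate 1 (17) or clone 11 day 21 replicate 1 (22), and rose without clone 8 or clone 11 day 21 replicate 2 (103 and 119). The losses fell to 14 or 15 without clone 8 day 7 replicate 2, clone 11 day 7 replicate 2, either clone 8 day 21 library or clone 11 day 21 replicate 1. A fit to these groups alone called 0.

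KO clone 3 carried more coverage of the arm than KO clone 12. Of the 2700 bins, 223 (8.26%) were higher in clone 3 and 1 (0.037%) was higher in clone 12, close to the 8.28% and 0.147% of all tested bins. The bin holding TDRKH, a germline piRNA-pathway gene, together with MRPL9 and OAZ3 (chr1:151750001-151775000) had 31.6 and 33.0% in clone 3 against 8.93 and 14.8% in clone 12 (limma adjusted p = 0.00638). The bin that was higher in clone 12 lies in TNR, the gene of a matrix protein of nervous tissue (chr1:175725001-175750000), with 6.18 and 8.71% in clone 3 and 12.0 and 15.5% in clone 12 (limma adjusted p = 0.0249). Both were named after their values were seen. The background pileup was 2.84 and 2.60 in clone 3 and 2.46 and 2.04 in clone 12, and with the pileup as a covariate 187 bins were higher in clone 3 and 5 lower. The count of 223 became 141 without clone 3 replicate 1 and 64 without clone 12 replicate 2. The count of 1 became 6 or 0 when the first or second library of clone 3 was left out, and 2 or 9 for those of clone 12. A fit to these groups alone called 0, lists of equal length gave 3 and scaling to called length gave 23 higher and 4 lower.

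In the untagged line, day 21 against day 0 of dTAGV-1 called 0 bins in either direction (limma, 29 higher and 2 lower at an unadjusted p under 0.05), beside 0.0% of all tested bins. The median change was 0.548 percentage points on the arm and 0.536 over all bins. The next count draws on the day 21 gains behind the choice of the arm and is a description. The change from day 0 to day 21 was larger in the tagged clones than in the untagged line in 141 of the 2700 bins (5.22%; 3.39% of all tested bins) and smaller in 0 (background 0.0582%; 3 at an unadjusted p under 0.05).

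Along the arm, coverage had 2 broad maxima, in the same segments in all 5 groups plotted. In 5-Mb segments counted from the first bin, the highest lay at chr1:153200001-158200000, a stretch with 135 protein-coding genes, where the mean covered percent was 14.0 in KO parental cells and 19.5 in the KO clones, while the tagged clones had 10.7 at day 0 and 19.4 at day 21. The second lay at chr1:203200001-208200000, with 9.84 and 14.9 in the KO experiment and 5.87 and 14.8 in the tagged clones. Segments of low coverage also gained. At chr1:213200001-218200000, with 10 genes, the level went from 0.323 to 3.75 in the KO experiment and from 0.288 to 1.70 in the tagged clones. All 4 KO libraries lay above both parental libraries in 21 of the 22 segments, and all 4 day 21 libraries above all 4 day 0 libraries in 22 of 22. Segments of this size were not counted over the rest of the genome. Both counts therefore describe the arm without setting it apart. The share of tested bins called gained in the KO clones was lowest in the segment of highest coverage (23.7%) and highest in the valley segment named above (81.2%), which had 43.8% at day 21. In that valley 64 of 200 bins were tested, and bins with so little coverage in the controls pass the filter mainly through the libraries in which they gained, so its share is not a result.

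**Figure D3:**
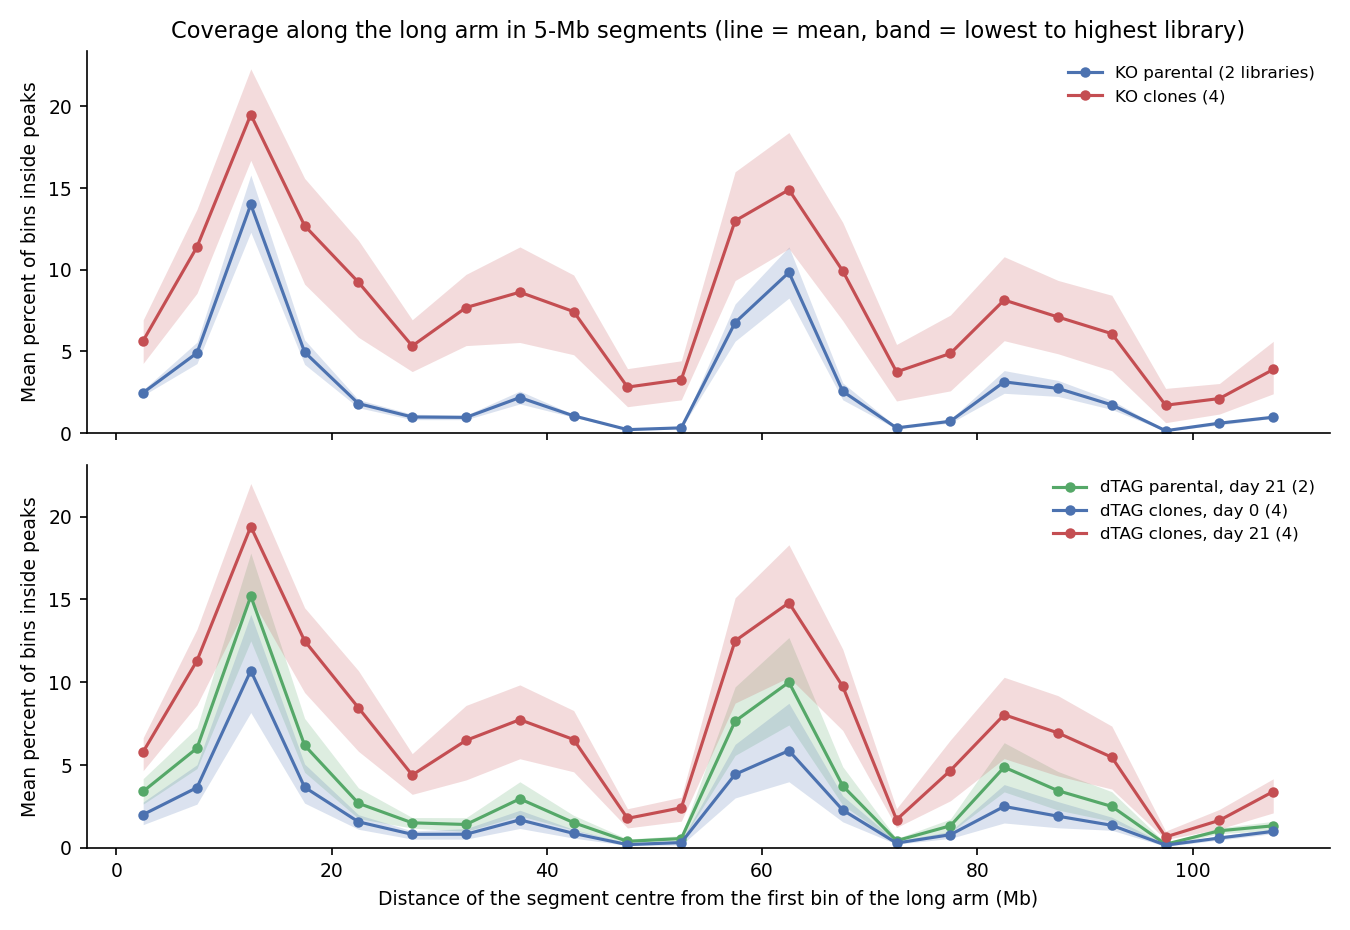
Mean covered percent of 1q in 5-Mb segments against distance from the first bin of the arm, in the KO experiment (top) and the tagged line (bottom). Lines are means and bands run from the lowest to the highest library; the peaks of the profile, at 14.0 and 9.84% in KO parental cells, stay in place while the whole profile is higher after NSD2 loss.

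Bins were also ordered by their coverage in the untagged line, whose 8 libraries enter neither contrast. In the 2034 bins with no peak in those 8 libraries, KO parental cells had 0.0144% and the KO clones 2.75%, and the tagged clones had 0.00933% at day 0 and 1.87% at day 21. Of the 630 bins of that class that passed the filter, 72.5% gained in the KO clones and 64.6% at day 21, but a bin without coverage in the controls can pass only through the libraries in which it is covered. The 572 bins above 0 and up to 1% went from 0.179 to 7.35% in the KO experiment and from 0.171 to 6.68% in the tagged clones, with 79.7% and 80.4% of tested bins gained, the highest shares of the 5 classes, and the same limit holds for them. The 741 bins above 1 and up to 5% went from 2.18 to 9.39% and from 1.78 to 9.12%, with 54.0% and 64.0% gained. In the 757 bins with 5 to 20%, the levels were 9.32 and 16.4% in the KO experiment and 6.89 and 16.4% in the tagged clones, and 31.4% and 62.6% gained. In the 126 bins above 20%, they were 29.6 and 31.7% in the KO experiment, where 1.59% gained, and 21.3 and 31.3% in the tagged clones, where 44.4% gained.

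Gene content divided the arm too. The 1684 bins without a protein-coding gene had 1.59% in KO parental cells and 7.07% in the KO clones, and went from 1.25% to 6.65% in the tagged clones by day 21. The 1450 bins lying wholly inside genes had 1.75 and 5.61%, and 1.19 and 4.60%. The 1096 bins partly in genes started higher, at 6.69%, and reached 12.0% in the KO clones, and went from 5.01 to 11.7% in the tagged clones. The share gained in the KO clones fell from 60.9% of tested bins with no gene start to 24.5% of those with 3 or more, while at day 21 it was 68.8% and 56.1%. Of bins with no start, 1806 of 3189 were tested, against 155 of 163 with 3 or more. Bins with little coverage in the controls pass the filter mainly through the libraries in which they gained, so this fall is not a result.

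**Figure D4:**
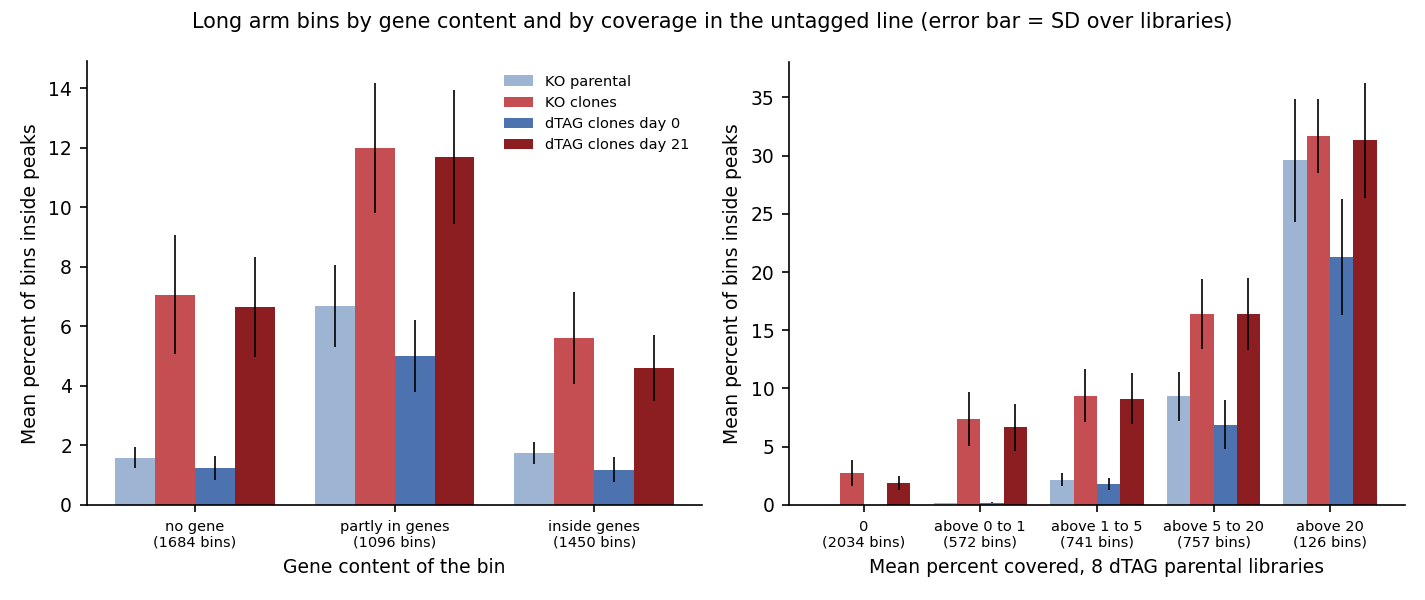
Mean covered percent of 1q bins by gene content (left) and by mean coverage in the 8 libraries of the untagged line (right). Bars are means over libraries and error bars SD (n = 2 for KO parental, 4 for the other groups); bins at 0 in the untagged line reach 2.75% in the KO clones, and bins above 20% go from 29.6 to 31.7%.

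The gained bins formed many short stretches. The 1158 bins gained in both experiments fell into 503 runs of adjacent bins, with a median of 1 bin, 270 of them single bins. Only 11 runs had 10 or more bins, with 148 bins between them. The longest, 18 bins at chr1:208250001-208700000, contains no protein-coding gene. Its covered percent was 1.43 and 0.682 in KO parental cells, 16.2 and 14.8 in KO clone 3, 11.8 and 10.0 in KO clone 12, 1.93 and 0.702 in clone 8 and 0.783 and 1.07 in clone 11 at day 0, and 15.8, 11.3, 15.8 and 9.16 in the 4 libraries of day 21. Every NSD2-deficient library of the stretch lay above every other one, which is a description, since the stretch was picked for its gains. In the untagged line it averaged 1.43% at day 0 and 2.32% at day 21.

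The other 5 of the 6 longest runs hold protein-coding genes. The 17 bins at chr1:162075001-162500000 span NOS1AP, an adaptor of neuronal nitric oxide synthase, with SPATA46, C1orf226, SH2D1B and UHMK1, and went from 3.00 to 18.7% in the KO experiment and from 2.86 to 18.1% in the tagged clones. The untagged line had 3.67% there at day 0 and 7.64% at day 21. The 16 bins at chr1:152500001-152900000 hold the late cornified envelope genes with KPRP and SMCP, and went from 1.65 to 15.6% in the KO experiment and from 0.859 to 14.0% in the tagged clones. The 15 bins at chr1:162600001-162975000 hold UAP1, DDR2 (a collagen receptor), HSD17B7 and CCDC190, and went from 0.943 to 12.3% and from 0.685 to 12.4%. The 14 bins at chr1:200050001-200400000 hold NR5A2, a nuclear receptor of liver and pancreas, and went from 1.30 to 11.9% and from 1.63 to 12.6%. The 13 bins at chr1:207425001-207750000 hold the complement receptor genes CR2, CR1 and CR1L, and went from 0.905 to 11.0% and from 0.772 to 11.3%.

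Some stretches of tested bins were called gained in neither experiment. The longest, 9 bins at chr1:227875001-228100000 with the Wnt ligand genes WNT9A and WNT3A and with ARF1, had 20.0% in KO parental cells and 15.6% in the KO clones, while the tagged clones had 17.2% at day 0 and 16.5% at day 21. A second, 7 bins at chr1:204050001-204225000 with SOX13, ETNK2, KISS1, GOLT1A and PLEKHA6 among its genes, had 22.2 and 20.3%, and 11.1 and 16.2%. Another run of 7 bins, at chr1:232750001-232925000 around MAP10, had 2.62 and 7.39%, and 2.45 and 6.30%. No bin of that run was called, yet over the whole run the lowest KO library (5.61%) lay above the highest KO parental one (3.43%), and the lowest at day 21 (4.20%) above the highest at day 0 (4.05%).

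The bin with the largest KO gain, chr1:150775001-150800000, overlaps CTSK, the collagen-degrading protease of osteoclasts. It had 0 and 1.31% in KO parental cells, 36.7 and 35.8% in KO clone 3 and 24.8 and 20.5% in KO clone 12, a change of 28.8 percentage points (limma adjusted p = 0.00111). In the tagged clones it had 5.05, 0, 1.02 and 0% at day 0 and 40.0, 35.4, 36.8 and 19.1% at day 21. The groups did not overlap in either experiment, and the untagged line averaged 5.12% at day 0 and 7.83% at day 21. The bin was picked for its gain, so this separation and the p-value are a description. The next KO gains were a bin with no gene at chr1:211525001-211550000 (0 to 26.9%; but 7.90% at day 0 and 18.9% at day 21 in the untagged line), the bins of SPRR5 (0 to 26.5%) and of the mevalonate pathway gene PMVK (3.05 to 27.1%), and one in FAM163A (0 to 23.8%). At day 21 the largest gain was at chr1:201250001-201275000, without a gene, from 8.48 to 40.4%, where KO parental cells already had 24.8%. CTSK came next, then the bin with SPATA46, C1orf226 and SH2D1B (3.12 to 31.8%). A bin inside PKP1, a desmosomal plaque gene, went from 9.78 to 38.1% at day 21 but from 30.4 to 29.3% in the KO experiment (limma adjusted p = 0.944). The bin of HJV, the hemojuvelin gene of iron control, went from 8.84 to 37.2% at day 21 and from 16.4 to 30.9% in the KO experiment (limma adjusted p = 0.0616).

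The 5 bins that lost coverage in the KO clones were small exceptions. The bin of NBPF20 at chr1:145425001-145450000 fell from 31.6 to 16.1% (limma adjusted p = 0.00661), while the tagged clones had 11.8% at day 0 and 19.1% at day 21. NBPF20 belongs to a family of near-identical copies, among which reads can be assigned wrongly, and the same holds for PDE4DIP (6.88 to 3.24%) and the histone gene H4C15 (5.40 to 0.881%). Of the other 2 bins, 1 overlapped the chaperonin gene CCT3 (7.87 to 2.16%) and 1, without a gene, lay at chr1:143275001-143300000 (2.93% to 0). That last bin was at 0 in the tagged clones already at day 0, and had 5.47% in the untagged line at day 0 and 7.39% at day 21. The count of 5 became 2 without KO parental replicate 1 or clone 3 replicate 1, and 3 without KO parental replicate 2 or clone 12 replicate 2.

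Scored over whole genes, 232 of 773 tested protein-coding genes of the arm (30.0%) gained coverage in the KO clones and 1 lost it, beside 18.0% and 0.744% of all 13975 tested genes. At day 21, 292 (37.8%) gained and 1 lost, beside 26.5% and 0.494%. The median change was 3.83 percentage points against 1.46 over all tested genes in the KO clones, and 4.12 against 2.05 at day 21. The filter left out 154 of the arm's 927 genes. A gene without coverage in the controls can pass it only through the libraries in which it is covered, which holds for the lists below too. Their members are genes of the arm, so the arm's 30.0% and 37.8% are the nearer comparison. Scaling each library to its called length changed the split to 138 gained and 71 lost in the KO clones and 144 and 214 at day 21, where most calls were then losses. With lists of equal length 27 and 93 genes gained, and among the strictest peaks 0 and 2. KO gains numbered 147 and 115 without KO parental replicate 1 and 2, and day 21 gains 187 without clone 8 day 0 replicate 2. The 1 loss in the KO clones became 6 when KO parental replicate 1 was left out, and 0 when the second library of either clone was. The 1 loss at day 21 became 2 when either day 0 library of clone 8, or its second at day 21, was left out, and 0 without clone 8 day 21 replicate 1 or either clone 11 day 21 library.

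Genes of the epidermal differentiation complex, which encode the proteins of the cornified skin surface, gained in 12 of 41 cases in the KO clones and 17 of 41 at day 21, 9 of them in both. These shares, 29.3% and 41.5%, stand beside 18.0% and 26.5% of all tested genes and 30.0% and 37.8% of those of the arm. Their median change was 18.5 and 18.9 percentage points, beside 1.46 and 2.05 over all tested genes. LCE3E, whose promoter is printed above, had 0 in both KO parental libraries and 100.0% in all 4 KO libraries (limma adjusted p = 0.000641). In the tagged clones it had 81.1, 0, 0 and 0% at day 0 and 100.0, 61.3, 100.0 and 88.6% at day 21 (limma adjusted p = 0.00191). LCE6A, of 1.13 kb, went from 0 to 98.1% in the KO experiment (limma adjusted p = 0.0304) and from 0 to 55.6% at day 21 (limma adjusted p = 0.113). IVL, the involucrin gene, had 43.1 and 16.9% in the KO experiment, and TCHH, the trichohyalin gene, 37.7 and 28.9%, neither passing the test. Genes of this complex are short, so that 1 peak can fill one.

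Other members of the complex made up most of the largest gene gains. LCE2A went from 0 to 100.0% in the KO clones (limma adjusted p = 0.0199), but 1 of 2 untreated dTAG parental libraries also had 100.0%. LCE1B went from 0 to 59.0% and, at day 21, from 0 to 83.7%, S100A12 from 6.75 to 63.2% and from 21.8 to 66.4%, and LCE1C from 0 to 36.0% and from 0 to 27.6%, each called in both. LCE1B was at 0 in KO clone 3 replicate 2. LCE1E (0 to 50.8%) and S100A1 (15.8 to 55.3%) gained in the KO clones. LCE2B (0 to 78.6%), LCE1D (11.9 to 77.9%), SPRR2E (0 to 64.7%), LCE5A (0 to 50.5%) and SPRR5 (0 to 49.8%) gained at day 21. Of these, SPRR2E and LCE5A were at 0 in clone 11 day 21 replicate 2, and SPRR5 in clone 11 day 21 replicate 1. LCE1D averaged 31.9% at day 0 and 40.5% at day 21 in the untagged line, and 30.1% in KO parental cells. Outside the complex, BECN2, a single-exon relative of the autophagy gene beclin 1, gained in the KO clones (0 to 47.0%). Its libraries were uneven, with 99.1 and 71.4% in KO clone 3 and 17.5 and 0% in KO clone 12. APOA2, an apolipoprotein gene of liver, gained at day 21 (0 to 65.2%), as did HJV (37.1 to 89.2%), which KO parental cells already had at 86.7%. GARIN4 was at 0 in all 4 day 0 libraries and at 92.2, 100.0, 86.3 and 67.5% at day 21 (limma adjusted p = 0.00061), yet had 45.5% in KO parental cells and 45.6% in the KO clones. In the untagged line it also rose, from 33.5 and 0% at day 0 to 42.2 and 68.8% at day 21.

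Immune receptor genes of the arm followed. Of 23 CD1 and Fc receptor genes, which present lipid antigens or bind antibody, 8 gained in the KO clones and 11 at day 21, 5 in both. These shares, 34.8% and 47.8%, stand beside 18.0% and 26.5% of all tested genes and 30.0% and 37.8% of those of the arm. So near the arm's own shares, they are not a result about this list. None lost (0.744% and 0.494% of all), and the median changes were 12.6 and 11.2 percentage points. FCRL3 had 13.7 and 1.21% in KO parental cells, 29.2 and 37.9% in KO clone 3 and 21.5 and 25.6% in KO clone 12 (limma adjusted p = 0.00465). It had 9.29, 9.65, 5.99 and 0% at day 0 and 41.6, 30.2, 39.4 and 29.2% at day 21 (limma adjusted p = 6.18e-05), with no overlap in either experiment. CD1E went from 0 to 47.7% and from 5.91 to 47.1%. CD1A (29.9 and 30.2%) and CD1D (32.0 and 23.1%) in the KO experiment did not pass the test.

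Of the 9 genes of the SLAM family, receptors of lymphocyte contact, 5 gained in the KO clones and 7 at day 21, those 5 included (55.6% and 77.8%, beside 18.0% and 26.5% of all tested genes), with median changes of 15.6 and 15.3 percentage points. SLAMF1 had 10.0 and 8.26% in KO parental cells and 31.7, 33.4, 20.3 and 21.3% in the KO clones (limma adjusted p = 0.00155). At day 21 it went from 4.07 to 27.0% (limma adjusted p = 2.75e-05). SLAMF8 went from 11.6 to 39.4% and from 8.06 to 39.7%, but in the untagged line it had 9.59% at day 0 and 30.8% at day 21. LY9 gained at day 21 (4.40 to 12.8%), and CD48 had 4.31 and 5.78% in the KO experiment and passed neither test.

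Of 7 tested selectin and TNF ligand genes of 1q24, 2 gained in the KO clones and 5 at day 21, with median changes of 8.33 and 9.34. These shares, 28.6% and 71.4%, stand beside 18.0% and 26.5% of all tested genes and 30.0% and 37.8% of those of the arm. SELE, the endothelial selectin gene, was at 0 in KO parental cells and at day 0, and had 22.6, 7.88, 7.87 and 7.30% in the KO clones (limma adjusted p = 0.167) and 23.5, 4.45, 19.1 and 8.58% at day 21 (limma adjusted p = 0.0237). FASLG, the death ligand of T cells, went from 0 to 16.0% at day 21. TNFSF18 had 4.11% in the KO clones and 3.34% at day 21, from 0, and passed neither test. Of 11 tested complement regulators, 9 gained in the KO clones and 6 at day 21, all 6 among the 9 (81.8% and 54.5%, beside 18.0% and 26.5% of all tested genes), with median changes of 9.19 and 3.69. CR1L had 1.38 and 0.565% in KO parental cells and 18.2, 16.3, 10.3 and 8.52% in the KO clones (limma adjusted p = 0.00017), and went from 0.502 to 12.8% at day 21. C4BPA, a liver-made inhibitor of complement, went from 0 to 14.8% and from 0 to 12.4%. CD46, the complement regulator of nearly all cells, had 1.93 and 1.95%, and CFHR3 had 0.617 and 2.30%, in the KO experiment, and neither passed.

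Of the 6 genes of the 1q32 interleukin cluster, 0 gained in the KO clones (limma, adjusted p under 0.05) and 3 at day 21 (0% and 50%, beside 18.0% and 26.5% of all tested genes), with median changes of 4.60 and 6.50. IL20 went from 10.7 to 43.6% at day 21 (limma adjusted p = 0.0254) and IL24 from 10.1 to 33.0% (limma adjusted p = 0.0489), while the kinase genes MAPKAPK2 (14.2 and 14.8%) and IKBKE (7.43 and 8.88%) did not pass. Of 8 tested RGS genes, whose products switch off G protein signals, 6 gained in the KO clones and 5 at day 21, 5 in both (75.0% and 62.5%, against the same shares of all genes), with median changes of 8.68 and 7.19. RGS13 was at 0 in both KO parental and all 4 day 0 libraries, and had 23.5, 15.0, 21.3 and 10.7% in the KO clones (limma adjusted p = 0.000615) and 19.9, 11.8, 20.2 and 13.9% at day 21 (limma adjusted p = 0.000142). RGS4 went from 0 to 17.3% and from 0 to 13.5%. RGS2, in contrast, had 24.1 and 9.68% in the KO experiment, and RGS16 5.84 and 7.66%, neither passing the test.

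Of 16 developmental transcription factor genes, the classic Polycomb targets, 8 gained in the KO clones and 10 at day 21, 6 in both (50% and 62.5%, beside 18.0% and 26.5% of all tested genes), with median changes of 6.62 and 8.28. ELF3, an epithelial regulator, gained at day 21 (5.52 to 30.8%, limma adjusted p = 0.00343) and had 23.8 and 32.7% in the KO experiment, which did not pass (limma adjusted p = 0.495). PROX1, of lymphatic vessels and liver, and PRRX1, of mesenchyme, gained in the KO clones (4.71 to 9.03% and 0 to 2.54%) and had 3.82 and 5.01% and 0.293 and 0.889% in the tagged clones. Of 5 tested signalling ligand genes, the same 2 gained in both experiments. That share, 40.0% in each, stands beside 18.0% and 26.5% of all tested genes and 30.0% and 37.8% of those of the arm. So near the arm's own shares, it is not a result about this list. TGFB2, which encodes a TGF-beta ligand, went from 2.09 to 9.00% and from 1.57 to 9.19%. WNT9A and WNT3A, which were well covered at the start, passed neither test.

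Of 28 tested neuronal and muscle genes, 15 gained in the KO clones and 17 at day 21, 13 in both (53.6% and 60.7%, beside 18.0% and 26.5% of all tested genes), with median changes of 6.36 and 7.69. NOS1AP, of 301 kb, had 3.00 and 3.25% in KO parental cells and 24.6, 21.2, 18.3 and 11.5% in the KO clones (limma adjusted p = 0.000682), and went from 3.30 to 18.5% at day 21. CACNA1S, the calcium channel gene of skeletal muscle, went from 10.9 to 31.6% at day 21, but had 28.0% in the untagged line at that day, against 13.3% at day 0. ACTA1, the skeletal muscle actin gene, was the 1 gene of the arm that lost coverage at day 21. It had 42.6, 0, 43.2 and 24.2% at day 0 and 0 in all 4 libraries at day 21 (limma adjusted p = 0.0398), and 1 of the day 0 libraries was also at 0. CHRNB2, a nicotinic receptor gene, had 37.1 and 24.2% in the KO experiment and did not pass. In the KO clones the 1 gene that lost coverage was NENF, a secreted neurotrophic factor gene, from 11.1 to 3.84% (limma adjusted p = 0.0264). Of 42 olfactory receptor genes, which are silent outside the nose, 22 were never covered and 13 were tested. Of the 13, 7 gained in the KO clones and 6 at day 21 (53.8% and 46.2%, against the same shares of all genes), with median changes of 8.38 and 5.58. Genes at 0 in the controls could enter the test only through the libraries in which they were covered, so these shares are not a result. OR10K2 went from 0 to 11.0% and from 0 to 14.4%, and OR6P1 from 0 to 12.8% and from 0 to 10.0%. OR10R2 gained at day 21 (0 to 3.32%), and OR10Z1 had 1.87% in the KO clones and 0.759% at day 21.

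Genes named in connection with 1q gain in myeloma were scored as another list. Of these 16 genes, 2 gained in the KO clones and 4 at day 21, 1 in both (12.5% and 25.0%, beside 18.0% and 26.5% of all tested genes), with median changes of 0.332 and 1.05 percentage points, below those of all tested genes (1.46 and 2.05). Counts so near the shares of all tested genes are not a result about this list. CKS1B had 8.24% in KO parental cells and 8.06% in the KO clones, and the tagged clones had 7.96% and then 8.20% at day 21 (limma adjusted p = 0.995 and 0.982). PDZK1 gained at day 21 (6.36 to 15.2%). ANP32E, a histone chaperone gene, had 10.4 and 2.78% in the KO experiment (limma adjusted p = 0.109) and UBE2Q1 11.7 and 7.12% (limma adjusted p = 0.655). The 39 tested broadly expressed genes had 3 gains in the KO clones and 5 at day 21, with median changes of 0.583 and 0.302. Their shares were 7.69% and 12.8%, beside 18.0% and 26.5% of all tested genes. ARPC5, an actin-nucleation subunit gene, gained at day 21 (2.63 to 9.34%, limma adjusted p = 0.00132), while RPS27, PSMB4 and SF3B4 passed neither test.

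**Figure D5:**
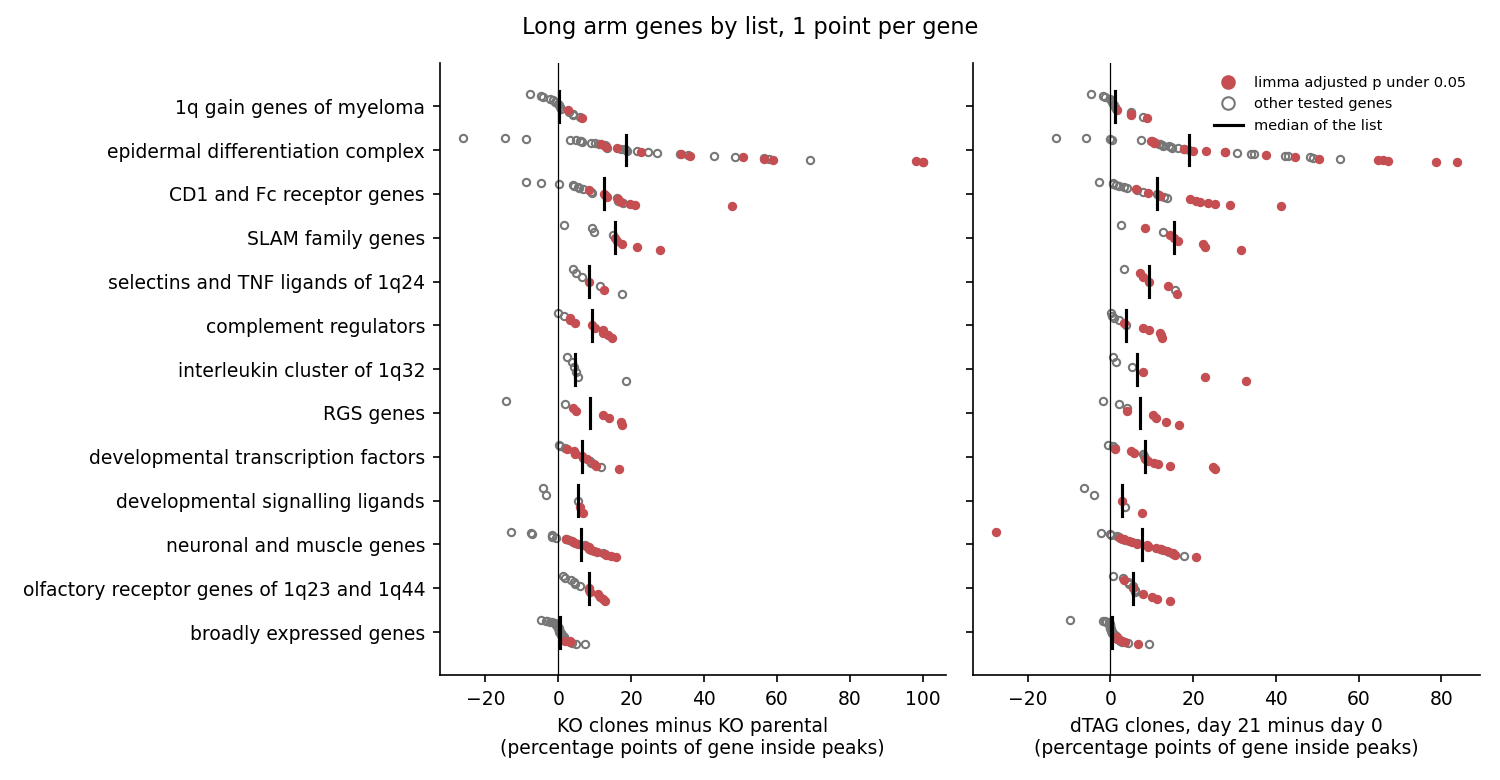
Change in the percent of each tested 1q gene inside H3K27me3 peaks, in percentage points, for the KO clones (left) and day 21 of the tagged clones (right), by gene list. Red points passed limma at an adjusted p under 0.05 and black lines are list medians; medians are 18.5 and 18.9 for the epidermal differentiation complex and 0.583 and 0.302 for broadly expressed genes.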

How the data were processed

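Per the submitters' processing notes, the authors used MACS3 3.0.2, Bowtie2, Picard, fastp 0.24.0, SAMtools, deepTools 3.5.1, ChIPseeker 1.42.1 and DESeq2 on the hg38 build, with no roles stated. How peaks were called, and whether IgG libraries served as control, is a point not given in the sources used here. The deposited broadPeak lists, 1 per library, hold for each peak a score, a fold enrichment (a ratio) and the -log10 p and -log10 q of the caller. They describe single peaks, and served to rank and filter them and to solve the background pileup.

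Peaks were merged within a library and intersected with bins, RefSeq genes of at least 1000 bp and the 250 bases before each start. Bins run to the last peak or gene, since chromosome lengths were not at hand. Other chromosomes were kept whole because their arms could not be placed. Covered percents were fitted with limma 3.58.1 (R 4.3.3) with 1 mean for each of 15 groups over 30 libraries (15 residual degrees of freedom), a trended prior and Benjamini-Hochberg adjustment over all features with a mean of 1 to 99%. A call is an adjusted p under 0.05. The fit was also run on simulated data with independent normal noise, which lacks the many zeros of the real values. The outcome is not reported here. The 1q ratio was tested by exact enumeration of library labels. The background pileup was solved from the fold and p of short peaks (the shortest 2% of each list), assuming a pseudocount of 1. It has no check against read counts.

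The members, gene lists and tests were chosen with earlier results of these data known. Named bins are the 5 largest gains and losses called in the KO clones and at day 21, with the 6 longest gained and 3 longest uncalled runs. Named genes are the 10 largest gains and 5 largest losses of each comparison, as far as called, and from each list up to 4 members, those with the largest and the smallest mean change. Some genes that the rule picks are not reported here. Gene annotations are protein-coding genes of RefSeq on GRCh38.p14.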

Additional observations from a re-analysis of the deposited data

Results flagged for a closer look

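The change from day 0 to day 21 of dTAGV-1 differed between the tagged clones and the untagged line in 141 of the 2700 tested bins of the arm, by an interaction term in limma at an adjusted p under 0.05, and was larger in the tagged clones in all 141. The arm was chosen for gains that include those of day 21 against day 0, so this count is a description and no independent test. The median difference over the arm's tested bins was 5.79 percentage points, against 3.61 over all tested bins. The count rests on single libraries: it was 0 without any 1 of the 4 untagged libraries at days 0 and 21, 7 and 4 without clone 8 day 0 replicates 1 and 2, 1 without either clone 11 day 0 library, 68 and 444 without clone 8 day 21 replicates 1 and 2, and 70 and 561 without clone 11 day 21 replicates 1 and 2. Where a group is left with 1 library, the fit assumes that it varies like the others. The labelled groups of 2 libraries are too small for Dixon's ratio. In 6 pools of 4 to 6 libraries of 1 state, checked for 4 measures each (24 checks), it marked no library.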

How the results depend on the processing

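Counts are bins of the arm called gained and lost unless genes are named, and the same order is kept: KO clones, day 7, day 14, day 21, day 21 against day 7, KO clone 3 against 12, the interaction of day 21 with line, then genes in the KO clones and at day 21. Scaled by called length, losses were 167, 198, 238 and 247 in the first 4, clone 3 against 12 gave 23 and 4, the interaction 286 and 22, and genes 138 and 71, and 144 and 214. With the background pileup as a covariate, losses were 23, 2, 17 and 17, day 7 gained 967, clone 3 against 12 had 5 lower, the interaction gave 288 and 2, KO genes 7 lost and day 21 genes 179 and 8. With lists of equal length the counts read 91 and 21, 166 and 10, 306 and 19, 303 and 22, 7 and 0, 3 and 0, 13 gained for the interaction, 27 and 11, and 93 and 12, and the untagged line at day 21 had 1 lost. At a -log10 q of 5 or more the counts read 0 and 1, 1 gained, 1 and 1, 12 and 1, 1 and 0, 0 and 0, 0 gained, 0 and 0 for KO genes and 2 gained at day 21. Without the filter on low values, KO losses were 9, day 14 losses 1, clone 3 against 12 gave 428 and 11, the interaction 53 and KO genes 2 lost. With only the groups compared, they were 913 and 2 in the KO clones, 1 lost at each of days 7, 14 and 21, 0 and 0 for day 21 against 7 and for the clones, and 343 for the interaction. The replicate block (numbers shared by the labels) gave 1 lost at days 14 and 21, 2 lower for clone 3 against 12, 367 and 1 for the interaction, 3 KO genes lost and 2 day 21 genes lost; KO gains were 1641 and day 21 gains 1890 with the block, and it left the 3 differences of the ratio as they were. The deviations of same-numbered libraries correlated at 0.011 to 0.698 (median 0.187) over 105 pairs of groups, with 72 over 0.1. All were above 0, and replicate 1 had more peaks than replicate 2 in 15 of 15 groups, but the labels tie the numbers to no shared batch and not every correlation passed 0.1, so the main counts have no block.

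The 1q ratio differences became 0.00148 (untagged line) and 0.0552 (day 21 against day 7) with the short arm as denominator, 0.0254 and 0.154 with lists of equal length, and 0.268 for day 21 against day 7 among peaks with a -log10 q of at least 5. Leaving out 1 library at a time, those 2 differences ran from -0.0504 to 0.00158 and from -0.0244 to 0.0175, and that of the untreated clones from the untagged line from -0.177 to -0.125. Gains then ran from 635 to 1480 in the KO clones, 1062 to 1423 at day 7, 1122 to 1787 at day 14, 1325 to 1800 at day 21, 17 to 119 for day 21 against day 7, 0 to 1 in the untagged line, 64 to 287 for clone 3 against 12, 0 to 561 for the interaction, and 115 to 243 and 187 to 315 for genes. Losses ran from 2 to 5 in the KO clones, 0 to 2 at days 14 and 21, 14 to 19 for day 21 against day 7, 0 to 9 for clone 3 against 12, and 0 to 6 and 0 to 2 for genes. The cause was not tested for any of these shifts, beyond the construction of each alternative: shorter lists leave fewer peaks. Depth limits the lists: a shallow library lists fewer bins, and absence from its list does not show absence of H3K27me3.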
